A study of Mus musculus with 108 samples.

Results

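The 57 genes described here encode transcription factors that pattern the embryo and specify neural, sensory, muscle, heart, limb, kidney or endocrine cells. They were taken as a named list of 8 Pax genes, 8 LIM homeobox genes, 4 NK homeobox genes, 3 genes of the Six2, Six3 and Six6 group, 6 Iroquois genes, 7 Sox genes, 5 T-box genes, 7 other homeobox genes, 7 bHLH genes of the neural lineage and 2 myogenic bHLH genes, out of 26089 mouse genes with a curated RefSeq transcript. The list is labelled as silent in liver. RNA was not measured in the files used here, so this label could be set only against histone marks, and no statement on transcription is made.

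The marks were read from livers of C57BL/6 female mice, fixed in formalin and embedded in paraffin. The 3 groups were mice at 3 months of age on standard diet (SD 3m, 8 mice), mice at 12 months on standard diet (SD 12m, 8 mice), and mice at 12 months kept from 3 months of age on a caloric restriction of 30% (CR 12m, 9 mice). Chromatin immunoprecipitation and sequencing of H3K4me3, H3K27me3, H3K27ac and H3K4me1 gave 30, 29 and 29 libraries, which the study merged by group before ChromHMM, a hidden Markov model, gave 1 of 8 chromatin states to every bin of 200 bp. A group is therefore 1 segmentation without replicates, no test between groups was possible, and both comparisons with older mice share the SD 3m segmentation. Standard diet at 6 months was not analysed here.

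State 6, called repressed Polycomb by the study, carries H3K27me3 alone. State 1 is active TSS, state 2 flanking TSS, states 3 and 4 are active enhancers, state 5 is poised enhancer with H3K4me1 above H3K27ac, state 7 is enriched in repeats and lamina-associated domains, and state 8 is quiescent, with none of the 4 marks. No state joins strong H3K4me3 with H3K27me3, so a promoter holding both marks cannot be told apart from one holding H3K27me3 alone. Because whole liver was used, fewer cells with a mark and less mark per cell cannot be told apart either.

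Polycomb repressive complex 2 methylates H3K27, and Polycomb repressive complex 1 binds the methylated histone. In vertebrates both complexes are found over CpG-rich promoters of developmental regulators in cell types that do not use them, and the mark often spreads over the whole gene and its flanks. Members of each family share a DNA-binding domain: the paired domain in Pax proteins, the homeodomain in Lhx, Nkx, Six2, Irx, En, Emx, Otx, Gbx, Isl and Pitx proteins, the HMG box in Sox proteins, the T-box in Tbx proteins, and the basic helix-loop-helix in Neurod, Neurog, Olig, Myod1 and Myf5.

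The sequences around a few TSS are shown first, because the genes differed in CpG content and in state. Each run covers 250 bases before the TSS and 50 from it on, 5′ to 3′ on the strand of the gene in GRCm38.p6 (mm10), with CpG dinucleotides in capitals. Nkx2-1, the thyroid and lung regulator on the minus strand at chr12:56536859-56537158, lay in the widest state 6 stretch in SD 3m. Nkx6-1, a regulator of motor neurons and beta cells on the minus strand at chr5:101664662-101664961, held the most CpG, with 40. Tbx5, a heart and forelimb regulator on the plus strand at chr5:119834413-119834712, held none at the start of its longest curated transcript.
Nkx2-1: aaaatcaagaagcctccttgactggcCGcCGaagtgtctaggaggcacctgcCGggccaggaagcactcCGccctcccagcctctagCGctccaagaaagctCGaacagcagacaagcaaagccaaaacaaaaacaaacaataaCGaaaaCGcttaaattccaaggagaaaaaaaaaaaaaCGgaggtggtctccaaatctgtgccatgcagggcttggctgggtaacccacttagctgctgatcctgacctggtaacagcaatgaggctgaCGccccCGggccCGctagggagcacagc
Nkx6-1: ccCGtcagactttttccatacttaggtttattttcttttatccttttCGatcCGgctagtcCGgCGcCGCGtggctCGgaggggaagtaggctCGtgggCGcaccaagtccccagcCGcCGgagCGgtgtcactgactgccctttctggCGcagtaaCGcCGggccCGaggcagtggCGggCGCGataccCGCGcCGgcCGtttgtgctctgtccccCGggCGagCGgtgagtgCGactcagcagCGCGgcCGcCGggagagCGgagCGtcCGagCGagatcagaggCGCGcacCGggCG
Tbx5: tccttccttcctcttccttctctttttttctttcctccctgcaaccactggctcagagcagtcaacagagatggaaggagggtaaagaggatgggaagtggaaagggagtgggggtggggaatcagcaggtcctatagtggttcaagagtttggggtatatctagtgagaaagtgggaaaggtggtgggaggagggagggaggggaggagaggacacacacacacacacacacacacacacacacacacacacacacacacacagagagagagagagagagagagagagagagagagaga

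The next 3 are the genes whose TSS bin was outside state 6 in every group. They are Lhx2 on the plus strand at chr2:38339031-38339330, with 34 CpG, Olig1 on the plus strand at chr16:91269519-91269818, with 26, and Myf5 on the minus strand at chr10:107486085-107486384, with 3. Lhx2 is a LIM homeobox regulator of forebrain, eye and hair follicle that hepatic stellate cells also use, Olig1 acts in oligodendrocytes, and Myf5 in muscle precursors.
Lhx2: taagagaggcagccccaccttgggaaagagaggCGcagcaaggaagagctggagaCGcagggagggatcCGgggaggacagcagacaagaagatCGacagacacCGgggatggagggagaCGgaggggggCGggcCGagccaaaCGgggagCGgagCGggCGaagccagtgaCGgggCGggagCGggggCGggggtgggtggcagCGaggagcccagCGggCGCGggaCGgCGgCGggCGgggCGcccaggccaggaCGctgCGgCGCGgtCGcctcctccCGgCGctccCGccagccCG
Olig1: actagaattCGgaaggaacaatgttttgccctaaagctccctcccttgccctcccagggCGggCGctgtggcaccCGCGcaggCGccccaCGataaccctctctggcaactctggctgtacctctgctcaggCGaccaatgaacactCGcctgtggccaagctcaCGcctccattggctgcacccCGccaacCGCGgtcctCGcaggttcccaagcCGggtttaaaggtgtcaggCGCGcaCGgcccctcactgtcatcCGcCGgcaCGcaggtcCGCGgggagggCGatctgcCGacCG
Myf5: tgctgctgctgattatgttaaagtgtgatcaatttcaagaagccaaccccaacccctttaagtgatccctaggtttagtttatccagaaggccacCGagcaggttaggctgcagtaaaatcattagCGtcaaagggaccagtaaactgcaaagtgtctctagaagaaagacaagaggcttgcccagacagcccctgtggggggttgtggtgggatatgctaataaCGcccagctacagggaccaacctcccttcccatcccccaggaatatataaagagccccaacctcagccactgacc

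Promoters of the 57 genes held a median of 20 CpG in these 300 bases, from 0 to 40, and those of all 26089 genes a median of 11. In 1 kb around the TSS the ratio of observed to expected CpG had a median of 0.702 for the 57 genes and of 0.514 for all genes. A CpG-rich TSS, with a ratio of at least 0.6 and at least 55% G+C in that 1 kb, was found in 35 of 57 genes (61.4%) and in 37.0% of all genes. The motif TATAAA was present on either strand in 5 of 57 promoters (8.77%) and in 13.1% of all promoters. The promoter of Myf5 was among those 5, while those of Nkx2-1, Nkx6-1, Tbx5, Lhx2 and Olig1 held no match.

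Most of the 57 genes had the TSS bin in state 6. In SD 3m these were 42 of 57 genes (73.7%), against 11.0% of all genes. In SD 12m they were 52 of 57 (91.2%), against 14.9%, and in CR 12m 45 of 57 (78.9%), against 12.2%. The TSS bin was in state 6 in all 3 groups in 37 of 57 genes (64.9%), against 6.60% of all genes. The other 20 genes were outside state 6 in at least 1 group, and only Lhx2, Olig1 and Myf5 in all 3.

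**Figure D1:**
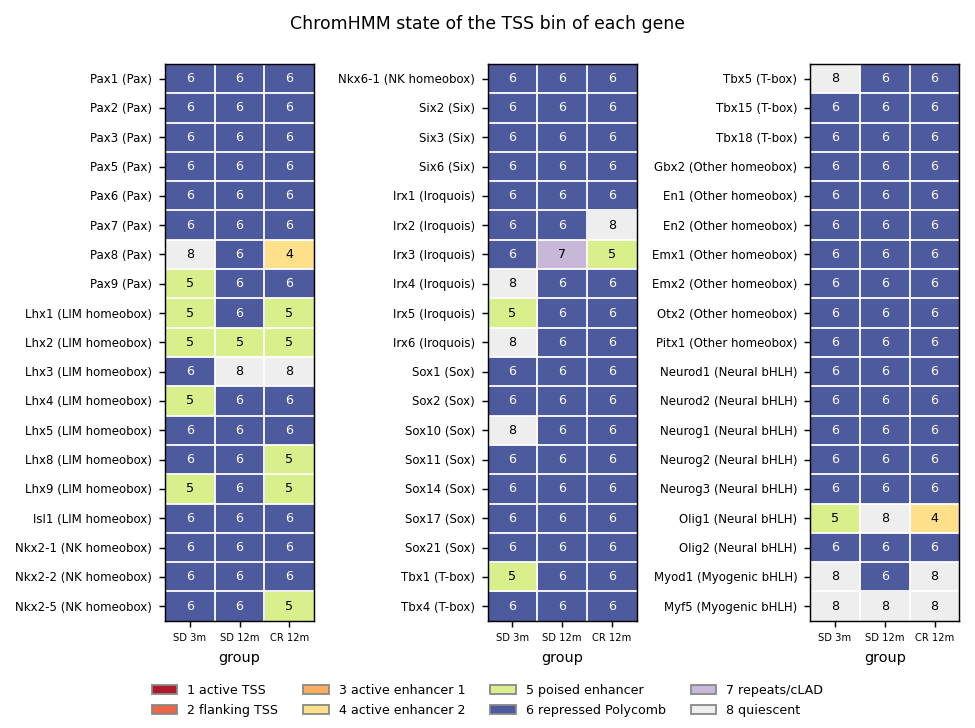
State of the 200 bp bin holding the TSS of each of the 57 genes (rows, with the family in parentheses) in SD 3m, SD 12m and CR 12m (columns), with the state number in each cell. State 6 fills 42, 52 and 45 of the 57 cells, and no cell is in states 1, 2 or 3.

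No TSS bin of the 57 genes was in states 1, 2 or 3 in any group. State 4 occurred at Pax8 and Olig1 in CR 12m only. Within 2 kb of the TSS, states 1 and 2 took 0% of the bins in each group, and states 3 and 4 together stayed below the share of state 5. In the same segmentations all 8 hepatocyte markers had the TSS bin in states 1 to 4, with Alb, the albumin gene, in state 4 throughout and Apoa1, an apolipoprotein gene, in states 4, 1 and 3.

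Families differed in how constant state 6 was. Six2 (kidney), Six3 and Six6 (forebrain and eye) and all 7 other homeobox genes, Gbx2, En1, En2, Emx1, Emx2, Otx2 and Pitx1 (brain regions and hindlimb), were in state 6 in every group. Of the Sox genes 6 of 7 were, with Sox10, the neural crest and glia regulator, in state 8 in SD 3m. Of the Pax genes 6 of 8 were, the exceptions being Pax8 (thyroid and kidney) and Pax9 (teeth and thymus). Of the neural bHLH genes 6 of 7 were, of the NK homeobox genes 3 of 4, and of the T-box genes 3 of 5. The share was lower in the LIM homeobox genes, with 2 of 8 (Lhx5 and Isl1), in the Iroquois genes, with 1 of 6 (Irx1), and in the myogenic genes, with 0 of 2.

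Of the bins within 2 kb of the TSS, state 6 took 73.5%, 89.1% and 79.4% in SD 3m, SD 12m and CR 12m. The shares over all genes were 11.6%, 15.0% and 12.3%. State 5 took 12.1%, 3.76% and 8.60% of the bins of the 57 genes, and state 8 took 13.5%, 5.35% and 8.44%. Over all genes state 5 took 7.80%, 2.48% and 1.99%, and state 8 took 29.2%, 23.6% and 27.9%, so that state 5 was less frequent in both older groups there too.

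The whole window was in state 6 in 36, 46 and 42 of the 57 genes, against 8.72%, 12.4% and 9.98% of all genes. No bin of the window was in state 6 in 9, 2 and 7 of them, against 21989, 21463 and 22237 of all 26089 genes. Gene bodies had a mean of 75.1%, 87.3% and 77.3% of their bins in state 6, against 10.2%, 12.6% and 10.2% over all genes. The body was wholly in state 6 in 32, 41 and 30 of the 57 genes, against 5.41%, 7.48% and 5.76% of all genes. From SD 3m to SD 12m the share of state 6 was higher in 19 windows and lower in 4, against 9.36% and 6.55% of all genes. It was higher in 21 bodies and lower in 4, against 12.2% and 9.51%. From SD 3m to CR 12m it was higher in 13 windows and lower in 8, against 7.37% and 7.66%. In bodies it was higher in 16 and lower in 15, against 9.95% and 10.7%. The 57 genes are short, with a median of 6.67 kb against 13.5 kb for all genes.

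State 6 stayed frequent up to 10 kb from the TSS and was less frequent at 50 kb. In SD 3m it was found at the TSS in 73.7% of the 57 genes, at 10 kb upstream and downstream in 75.4% and 80.7%, and at 50 kb in 38.6% and 36.8%. In SD 12m the shares were 91.2% at the TSS, 86.0% and 75.4% at 10 kb, and 50.9% and 40.4% at 50 kb. In CR 12m the shares were 78.9% at the TSS, 82.5% and 73.7% at 10 kb, and 43.9% and 38.6% at 50 kb. Over all genes the shares at 10 kb and 50 kb lay between 10.8% and 15.7%. For SD 3m state 6 covered more than 50% of the 57 genes from 29.6 kb upstream to 26.6 kb downstream. The same limits were 33.4 kb and 35.2 kb for SD 12m, and 22.2 kb and 36.2 kb for CR 12m. Beyond these limits state 6 could still exceed 50%, as at 50 kb upstream in SD 12m. At 100 kb upstream it was found in 29.8%, 45.6% and 35.1% of them, and in 13.1%, 14.4% and 12.0% of all genes. At 100 kb downstream it was found in 15.8%, 33.3% and 28.1%, and in 11.9%, 13.5% and 11.3% of all genes.

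**Figure D2:**
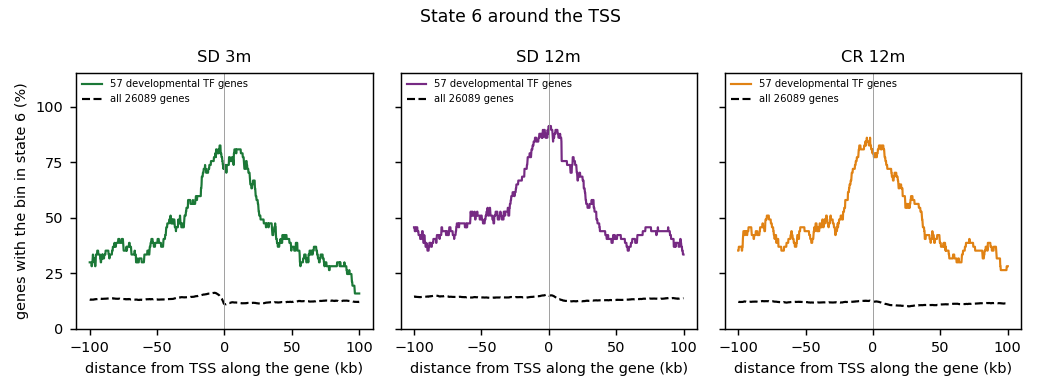
Percent of genes whose bin was in state 6 (y axis) by distance from the TSS along the gene in kb (x axis), for the 57 developmental transcription factor genes (solid) and all 26089 genes (dashed), in the 3 groups. At the TSS the solid line is at 73.7%, 91.2% and 78.9% in SD 3m, SD 12m and CR 12m, and the dashed line at 11.0%, 14.9% and 12.2%.

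The TSS bin was in another state than in SD 3m in 15 of 57 genes in SD 12m (26.3%), against 32.6% of all genes, and in 15 of 57 in CR 12m, against 34.7%. State 6 was gained by SD 12m in 12 of the 15 genes that lacked it in SD 3m, against 7.64% of all genes that lacked it, and by CR 12m in 8 of the 15, against 5.55%. Of the 42 genes in state 6 in SD 3m, 2 were in another state in SD 12m, against 26.6% of all such genes, and 5 in CR 12m, against 34.3%. Over the whole genome state 6 covered 9.48%, 14.4% and 10.3% of the bins in the 3 groups. The merged H3K27me3 libraries numbered 7, 8 and 6, the H3K4me1 libraries 8, 6 and 9, and the part of library number or depth in the states was not tested.

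State 5 at the TSS was found in 8 genes in SD 3m: Pax9, Lhx1, Lhx2, Lhx4, Lhx9, Irx5, Tbx1 and Olig1. In SD 12m 6 of these 8 were in state 6, against 7.85% of all genes in state 5 in SD 3m, and in CR 12m 4 of 8 were, against 7.97%. Pax9, Lhx4 (pituitary and motor neurons), Irx5 (heart and retina) and Tbx1 (pharyngeal arches) were in state 6 in both older groups. Lhx1, needed for head and kidney formation, and Lhx9, a gonad and limb regulator, were in state 6 in SD 12m and in state 5 in CR 12m. Lhx2 stayed in state 5 in all 3 groups.

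State 8 at the TSS was found in 7 genes in SD 3m: Pax8, Irx4, Irx6, Sox10, Tbx5, Myod1 and Myf5. In SD 12m 6 of these 7 were in state 6, against 20.8% of all genes in state 8 in SD 3m, and in CR 12m 4 of 7 were, against 14.0%. Irx4, a ventricle regulator, Irx6, Sox10 and Tbx5 were in state 6 in both older groups. Myod1, the muscle determination gene, was in state 6 in SD 12m and in state 8 in CR 12m, and Myf5 stayed in state 8.

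Genes that left state 6 were few. Lhx3, a pituitary and motor neuron regulator, was in state 8 in both older groups, and another of its curated TSS was in state 6 in all 3 groups. Irx3, a heart and neural tube regulator, was in state 7 in SD 12m and in state 5 in CR 12m. Lhx8 (forebrain and tooth), Nkx2-5 (heart) and Irx2 were in state 6 in SD 12m and left it in CR 12m, to state 5 for Lhx8 and Nkx2-5 and to state 8 for Irx2. Of the 100 kb on each side, state 6 took 28.3%, 46.4% and 49.4% at Lhx3 in SD 3m, SD 12m and CR 12m. It took 34.5%, 86.5% and 85.9% at Lhx8, 23.2%, 40.1% and 40.3% at Irx2, and 44.4%, 29.5% and 30.9% at Nkx2-5. Around Lhx3, Lhx8 and Irx2 state 6 was thus more frequent in both older groups than in SD 3m, and around Nkx2-5 less.

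Some TSS outside state 6 lay close to it. State 6 was present within 2 kb in 6 of the 15 genes outside it in SD 3m (40.0%), in 3 of 5 in SD 12m (60.0%) and in 5 of 12 in CR 12m (41.7%). The shares over all genes outside state 6 were 5.25%, 3.33% and 2.93%. At Pax9 the run of state 5 in SD 3m was 0.8 kb long and state 6 began 0.4 kb from the TSS. At Lhx4 it was 4.0 kb long with state 6 at 1.8 kb, at Irx5 3.2 kb with state 6 at 1.6 kb, and at Lhx1 4.6 kb with state 6 at 1.4 kb. These were short islands of state 5 inside or at the border of a state 6 domain.

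Lhx1 shows how little of the locus such a switch involved. State 6 took 51.7%, 52.7% and 50.8% of the 100 kb on each side of its TSS in SD 3m, SD 12m and CR 12m, although the TSS bin was in states 5, 6 and 5. Lhx2 held a longer run of state 5 at its TSS, of 34.0 kb, 13.2 kb and 37.0 kb. At Lhx9 that run was 17.0 kb in SD 3m and 7.6 kb in CR 12m, and in SD 12m the TSS lay in a state 6 stretch of 5.2 kb. At Irx3 the TSS bin left state 6 in a run of state 7 of only 0.8 kb in SD 12m and of state 5 of 2.2 kb in CR 12m, and state 6 within 100 kb on each side was 56.9%, 31.4% and 29.7%.

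Myod1 and Myf5 had little state 6 around them in SD 3m. In SD 3m the TSS of Myod1 was in a run of state 8 of 346.6 kb. In SD 12m it was in a state 6 stretch of 74.2 kb, and in CR 12m in a run of state 8 of 69.0 kb. State 6 took 3.7%, 45.6% and 9.2% of the 100 kb on each side. Myf5 was in a run of state 8 of 355.2 kb in SD 3m, with the nearest state 6 bin 263.4 kb away. In SD 12m and CR 12m state 6 came to 1.4 kb and 0.2 kb from its TSS without reaching it.

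Olig1 and Pax8 were the genes whose TSS bin was in state 4, in CR 12m. In SD 3m the TSS bin of Olig1 was in state 5 with state 6 at 1.8 kb. In SD 12m and CR 12m the nearest state 6 bin was 17.8 kb and 24.8 kb away, and state 3 was the most frequent state within 2 kb in both. Olig2, its neighbour at 44.219 kb and a regulator of motor neurons and oligodendrocytes, stayed in state 6 in all 3 groups. At Pax8 the TSS bin was in a 2.6 kb stretch of state 6 in SD 12m and in state 4 in CR 12m, where state 3 was the most frequent state within 2 kb.

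**Figure D3:**
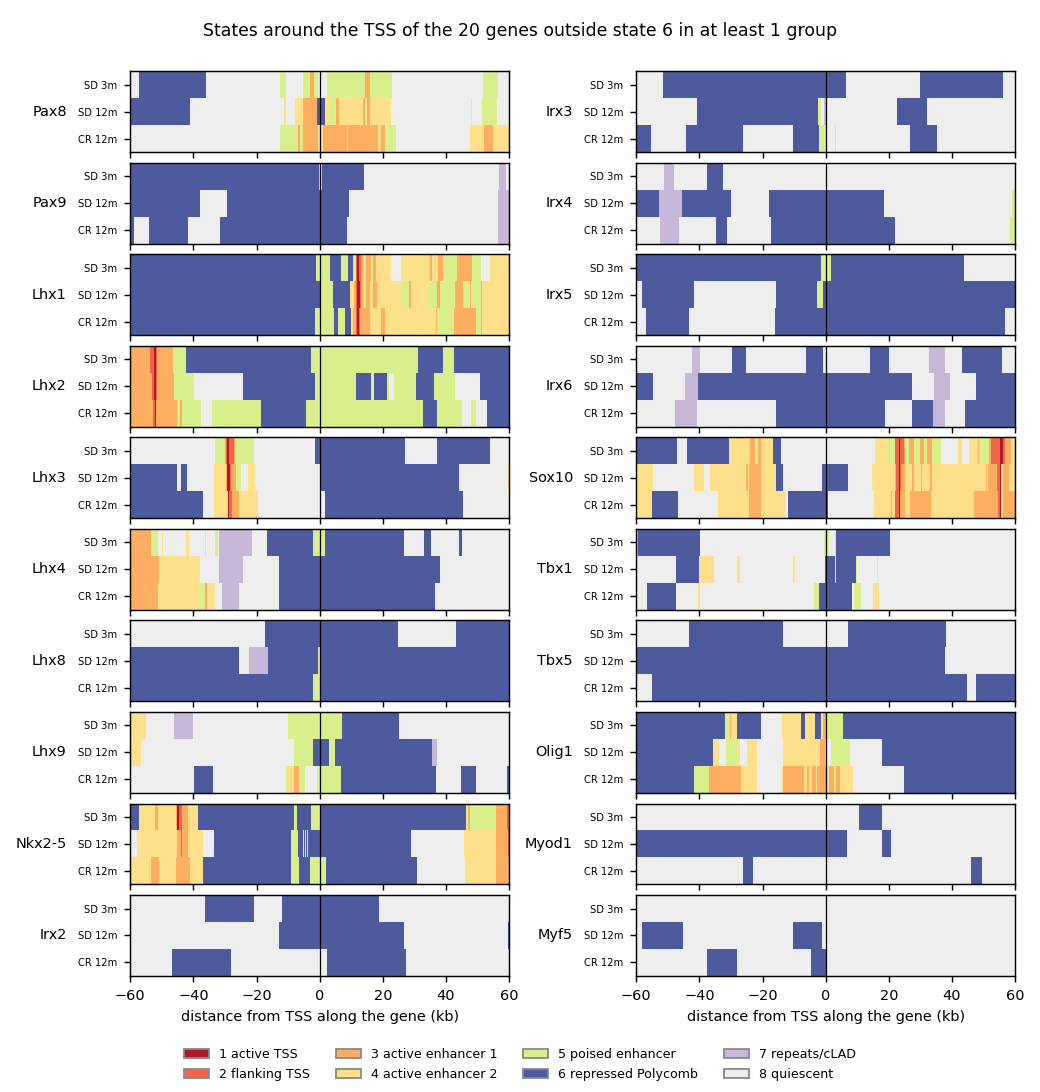
States by distance from the TSS along the gene in kb (x axis, 60 kb on each side) in SD 3m, SD 12m and CR 12m (rows of each panel) for the 20 genes outside state 6 in at least 1 group; the black line marks the TSS. State 5 forms short islands at the TSS of Pax9, Lhx4 and Irx5 in SD 3m, and wide runs at Lhx2.

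The state 6 stretch holding the TSS bin had a median width of 54.0 kb in SD 3m (42 genes), 74.2 kb in SD 12m (52 genes) and 55.8 kb in CR 12m (45 genes). For all genes in state 6 the medians were 32.2 kb, 37.8 kb and 33.6 kb. Stretches of at least 100 kb held the TSS of 12, 19 and 13 of the 57 genes (21.1%, 33.3% and 22.8%), against 1.48%, 2.54% and 1.63% of all genes. The stretches of the 57 genes summed to 2.91 Mb, 4.97 Mb and 3.73 Mb. They reached a median of 25.2 kb upstream and 26.2 kb downstream of the TSS in SD 3m.

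The widest stretches in SD 3m were those of Nkx2-1 (220.6 kb), Tbx4 (201.8 kb), Pax2 (152.6 kb), Nkx6-1 (143.0 kb) and Six6 (140.8 kb). Tbx4 is a hindlimb regulator, Pax2 acts in kidney and midbrain, and Six6 in eye and pituitary. The stretch of Nkx2-1 spanned chr12:56346401-56567000 in SD 3m and was 311.2 kb and 223.2 kb wide in SD 12m and CR 12m. That of Tbx4 hardly moved, at 201.8 kb, 205.2 kb and 205.8 kb. The narrowest were those of Sox11 (12.2 kb), Lhx5 (17.4 kb), Gbx2 (18 kb), Irx1 (21.6 kb) and Neurod1 (24.4 kb). Sox11 (neuronal progenitors) stayed narrow, at 25.8 kb and 13.8 kb in SD 12m and CR 12m, and so did Neurod1 (neurons and endocrine pancreas), at 20.8 kb and 20.0 kb.

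Among genes in state 6 at both ends of a comparison, the stretch was wider in 29 of 40 genes in SD 12m, with a median ratio to SD 3m of 1.30 (0.557 to 7.63). Over all such genes 56.6% were wider and the median ratio was 1.09. In CR 12m it was wider in 22 of 37 genes, with a median ratio of 1.11 (0.0222 to 5.86), and over all such genes 50.1% were wider with a median ratio of 1.002. Joining stretches across gaps of at most 1 kb gave 29 of 40 with 1.29 and 24 of 37 with 1.13.

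**Figure D4:**
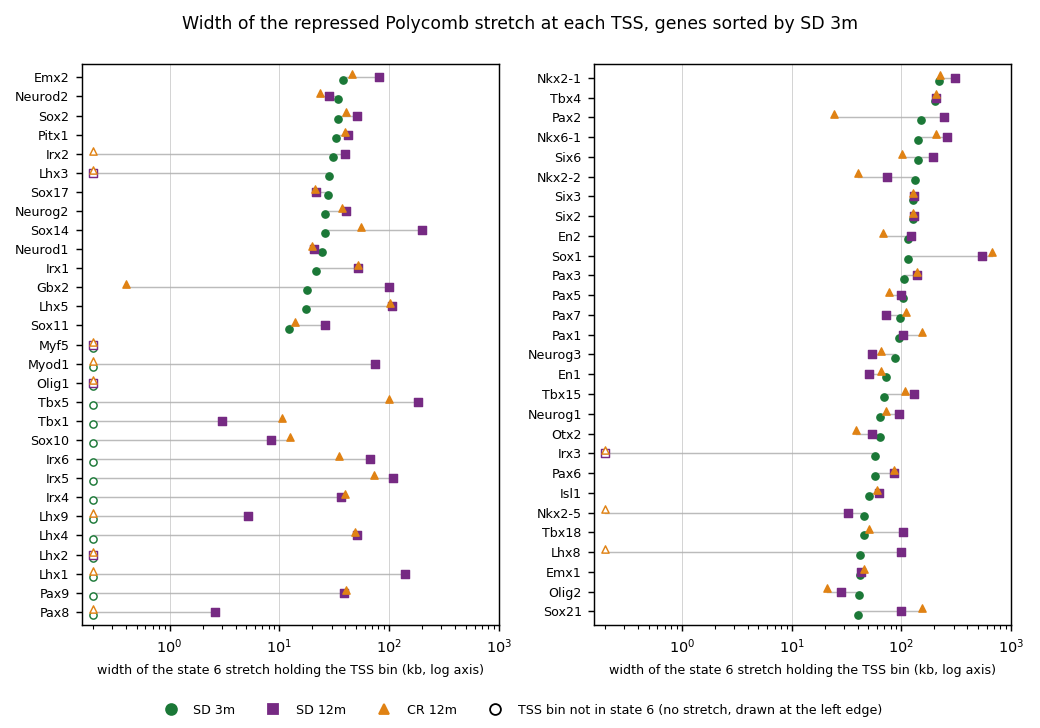
Width in kb (x axis, log scale) of the state 6 stretch that held the TSS bin of each of the 57 genes (y axis, sorted by SD 3m) in the 3 groups; open symbols at the left edge mark a TSS bin outside state 6. Filled symbols run from 0.4 kb at Gbx2 in CR 12m to 670.2 kb at Sox1 in CR 12m.

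The largest rises to SD 12m were at Sox1, Tbx5, Sox14, Lhx1 and Nkx6-1, counting a missing stretch as 0 kb. Sox1, a regulator of the early neural plate, had stretches of 115.6 kb, 547.2 kb and 670.2 kb in SD 3m, SD 12m and CR 12m. The extension in SD 12m, at chr8:11937001-12484200, was upstream of the gene, where the stretch reached 29.4 kb in SD 3m and 458.4 kb in SD 12m. Tbx5 went from 0 kb to 185.0 kb and 99.4 kb. Sox14, an interneuron gene, had 26.0 kb, 198.4 kb and 55.8 kb, and Nkx6-1 had 143.0 kb, 260.8 kb and 207.4 kb. Lhx1 had a stretch of 139.8 kb in SD 12m and none in SD 3m or CR 12m.

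The largest rises to CR 12m were at Sox1, Sox21, Tbx5, Lhx5 and Irx5. Sox21, a neural progenitor gene, had 40.2 kb, 98.6 kb and 152.8 kb. Lhx5, a forebrain gene, had 17.4 kb, 106.4 kb and 102.0 kb, and Irx5 had 0 kb, 108.8 kb and 72.6 kb. Sox1, Tbx5, Lhx5, Sox21 and Irx5, ranked here by their rise to CR 12m, were also wider in SD 12m than in SD 3m. At Irx5 the 0 kb in SD 3m came from a TSS bin in a 3.2 kb run of state 5. State 6 took 59.2%, 65.0% and 60.2% of the 100 kb on each side of the Irx5 TSS.

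The largest falls to SD 12m were at Nkx2-2, Irx3, Neurog3, Lhx3 and Pax7. Nkx2-2, which patterns the ventral neural tube, had 133.2 kb, 74.2 kb and 40.6 kb. Neurog3, the endocrine pancreas determinant, had 87.2 kb, 53.8 kb and 66.0 kb. Irx3 and Lhx3 lost their stretches of 57.8 kb and 28.6 kb with the state of the TSS bin. Pax7, the muscle satellite cell regulator, had 96.6 kb, 72.8 kb and 109.4 kb.

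The largest falls to CR 12m were at Pax2, Nkx2-2, Irx3, En2 and Nkx2-5. Nkx2-5 had 46.2 kb and 32.4 kb in SD 3m and SD 12m and no stretch in CR 12m. Pax2 had 152.6 kb, 244.8 kb and 24.4 kb, with no change when gaps of at most 1 kb were bridged. State 6 took 98.3%, 97.0% and 91.6% of the 100 kb on each side of its TSS. The stretch of En2, a midbrain and hindbrain gene, was 116.2 kb, 122.2 kb and 68.4 kb, or 118.6 kb in CR 12m when gaps of at most 1 kb were bridged. That of Gbx2, a hindbrain gene, was 18 kb, 100.2 kb and 0.4 kb, or 77.6 kb, 100.2 kb and 119.4 kb when bridged. Gaps of at most 1 kb thus changed the width at En2 and Gbx2, and not at Pax2 or Nkx2-2.

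Emx1, Isl1, Pitx1, Sox2 and En1 are among the genes not singled out by width, and each had the whole 2 kb window in state 6 in every group. Emx1, a cortex gene, had 41.8 kb, 43.0 kb and 46.2 kb, Isl1, a motor neuron and islet gene, 51.0 kb, 63.2 kb and 60.2 kb, and Pitx1, the hindlimb gene, 33.0 kb, 41.8 kb and 39.6 kb. Sox2, the stem cell and neural progenitor gene, had 34.0 kb, 51.2 kb and 40.6 kb, and En1, the midbrain and limb gene, 72.0 kb, 50.4 kb and 65.6 kb. The stretch of Emx1 was wider and that of En1 narrower in both older groups than in SD 3m. The share of state 6 in the 100 kb on each side went the other way. It was 36.4%, 35.9% and 32.7% at Emx1 and 42.3%, 64.9% and 78.2% at En1.

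In the Pax family, Pax3 (neural crest and muscle) had 105.8 kb, 138.8 kb and 137.8 kb, Pax5 (B cells) 103.8 kb, 99.8 kb and 77.0 kb, and Pax1 95.2 kb, 104.0 kb and 154.6 kb. Pax6, the eye and pancreas regulator, had 57 kb, 86.4 kb and 85.6 kb, and state 6 filled 81.0%, 100% and 90.5% of its 2 kb window. The stretches of Pax3, Pax1 and Pax6 were thus wider in both older groups than in SD 3m, and that of Pax5 was narrower in both. State 6 took 45.6%, 86.9% and 57.7% of the Pax5 body, and 59.4%, 62.0% and 48.5% of the 100 kb on each side. Pax9 had 38.6 kb and 40.2 kb in SD 12m and CR 12m, and no stretch in SD 3m only because its TSS bin was in state 5. That run of state 5 was 0.8 kb long, and state 6 took 81.0% of the 2 kb window in SD 3m. Of the 100 kb on each side of the Pax9 TSS, state 6 took 56.5%, 50.2% and 46.9% in SD 3m, SD 12m and CR 12m.

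In the neural bHLH family, Neurod2 had 34.0 kb, 28.2 kb and 23.4 kb and Olig2 40.8 kb, 28.4 kb and 21.0 kb, so that both were narrower in SD 12m and CR 12m. Neurog1 (sensory neurons), with 63.8 kb, 94.6 kb and 72.6 kb, and Neurog2 (cortical and motor neurons), with 26.0 kb, 40.2 kb and 37.4 kb, were wider in both. Otx2, a forebrain and eye gene, had 63.6 kb, 54.2 kb and 39.0 kb, while Emx2, of cortex and urogenital tract, had 38.2 kb, 80.2 kb and 46.2 kb. In the T-box family, Tbx15 (skeleton) had 69.4 kb, 129.2 kb and 107.2 kb and Tbx18 (epicardium and ureter) 46.0 kb, 104.0 kb and 50.8 kb.

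The genes that took up state 6 at the TSS after SD 3m then lay in stretches of very different width, not all of it new. Tbx1 had 3.0 kb and 10.6 kb in SD 12m and CR 12m, and Sox10 had 8.4 kb and 12.6 kb. Irx4 had 36.6 kb and 39.4 kb, Lhx4 51.0 kb and 49.2 kb, and Irx6 67.6 kb and 34.6 kb. Among them Tbx5 had the widest, and Tbx1 the narrowest of those in state 6 in both older groups.

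The share of state 6 in the 100 kb on each side of the TSS, which does not depend on single gaps, had medians over the 57 genes of 43.6%, 51.8% and 48.5% for SD 3m, SD 12m and CR 12m. Over all genes the medians were 4.99%, 3.00% and 1.90%. The share was higher than in SD 3m in 37 of the 57 genes in SD 12m, against 29.4% of all genes, and lower in 20, against 43.3%. In CR 12m it was higher in 32, against 24.9%, and lower in 25, against 46.0%.

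The 42, 52 and 45 genes with the TSS bin in state 6 lay in 41, 51 and 44 distinct stretches in SD 3m, SD 12m and CR 12m. The bin next to a stretch was in state 8 at 75.6% of 82 ends, 78.4% of 102 and 81.8% of 88. Over the ends of all state 6 stretches in the genome the shares were 70.8%, 85.8% and 90.6%. State 5 stood at 15.9%, 12.7% and 14.8% of the ends, against 14.6%, 2.25% and 3.68% over the genome. No other coding gene started within the stretch in 35 of 42, 41 of 52 and 38 of 45 genes, and the remainder held 1. For Six2 and Six3 that 1 was the other of the pair. The same share over all genes in state 6 was not computed. The stretch of Tbx4 held only the TSS of Gm20759 besides its own in all 3 groups.

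Some of the 57 genes are neighbours. Six2 and Six3, at 67.42 kb from each other, shared 1 stretch in every group, of 128.8 kb, 129.8 kb and 128.2 kb. Nkx2-1 and Pax9, at 158.563 kb, had 88.0%, 94.5% and 86.9% of the bins between their TSS in state 6. Between Nkx2-2 and Pax1 (sclerotome), at 178.592 kb, the share was 93.7%, 77.9% and 75.1%. Between Olig2 and Olig1 it was 52.3%, 19.4% and 5.41%.

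The Iroquois genes lie in 2 clusters on chromosomes 8 and 13, and the intervals within them moved in different directions. Between Irx3 and Irx5 the share of state 6 was 72.7%, 39.5% and 24.7%, and between Irx5 and Irx6 26.4%, 68.3% and 47.8%. Between Irx2 and Irx4 it was 7.95%, 58.7% and 45.7%, and between Irx1 and Irx2 8.63%, 15.2% and 12.7%. In both older groups the interval of Irx3 and Irx5 thus lost state 6 while that of Irx5 and Irx6 gained it. Between Tbx5 and Lhx5 on chromosome 5 it was 27.1%, 68.7% and 50.8%.

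CpG content differed with the SD 3m state. The 42 genes in state 6 held a median of 21.5 CpG per promoter (4 to 40), the 8 in state 5 a median of 22.5 (3 to 34), and the 7 in state 8 a median of 7 (0 to 31). The ratio of observed to expected CpG had medians of 0.734, 0.704 and 0.406 in the same order. Over all genes these medians were 0.414 for 2881 genes in state 6, 0.362 for 1657 in state 5 and 0.210 for 7590 in state 8. Tbx5, Pax8, Sox10, Myf5 and Myod1 were below 0.6, while Irx4 and Irx6 were above it.

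**Figure D5:**
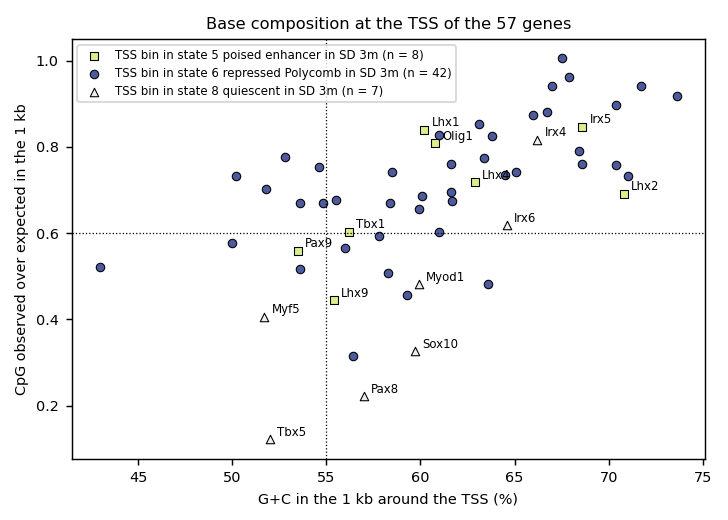
Ratio of observed to expected CpG (y axis) against percent G+C (x axis) in 1 kb around the TSS of each of the 57 genes, with symbols by the SD 3m state of the TSS bin; the dotted lines mark 0.6 and 55%. Of the 7 genes in state 8 (triangles), 5 lie below 0.6, among them Tbx5, Pax8 and Sox10.

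Among the 35 of the 57 genes with a CpG-rich TSS, state 6 was found in 77.1%, 91.4% and 85.7% in SD 3m, SD 12m and CR 12m, and among the other 22 in 68.2%, 90.9% and 68.2%. Over all genes CpG-rich TSS were in state 6 less often than other TSS, at 8.23%, 11.2% and 9.65% against 12.7%, 17.1% and 13.7%. In 11 of the 57 genes a noncoding transcript started within 2 kb of the TSS, as Lhx1os at Lhx1 and Crnde at Irx5. How often this holds over all genes was not computed. State 6 was found in 8, 11 and 8 of these 11, and in 34, 41 and 37 of the other 46.

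Paralogs from the same families that are outside the list differed from it. The list is labelled as silent in liver and the paralogs are not, and the part of that choice in the difference was not tested. Of 45 such genes, 37.8%, 48.9% and 46.7% had the TSS bin in state 6 in SD 3m, SD 12m and CR 12m, and 12 of 45 (26.7%) in all 3 groups. States 1 to 5 were found in all 3 groups in 13 of the 45, in 1 of the 57 (Lhx2) and in 54.7% of all genes. The 13 were Sox4, Sox5, Sox6, Sox7, Sox13, Sox15, Sox18, Tbx3, Tbx6, Tbx10, Six5, Nkx2-6 and Pitx3. Sox7 and Sox18, which act in endothelial cells, were in state 1 throughout and in states 5, 4 and 4. Tbx3, which acts in the liver bud, was in state 4 throughout. Sox17, another endothelial regulator and one of the 57 genes, was in state 6 in all 3 groups, in stretches of 27.8 kb, 21.6 kb and 21.2 kb.

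The 39 Hox genes, the clustered homeobox genes of the body axis, were close to the 57 genes in share but not in width. They had the TSS bin in state 6 in 76.9%, 84.6% and 79.5%, and in all 3 groups in 29 of 39 (74.4%). Their stretches had medians of 211.2 kb, 275.2 kb and 227.4 kb, which several genes of a cluster share.

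Among markers of other liver cells, state 6 at the TSS was found in 0, 2 and 1 of 5 stellate genes, 1 of 5 endothelial genes in each group, 2, 3 and 2 of 4 Kupffer cell genes, 0, 1 and 0 of 4 cholangiocyte genes and 1 of 3 lymphocyte genes in each group. Lhx2 belongs to the stellate list and Sox17 to the endothelial list. Of 3 neuron genes 2, 3 and 3 were in state 6 and none was in states 1 to 5. The part of cell composition in the states of the 57 genes was not tested.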

How the data were processed

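The authors aligned reads to mm10 with BWA (0.6.2-r126, the submitters' processing notes name it with SAMtools 0.1.18), removed duplicates, merged the libraries of each group, binarized them and trained 1 ChromHMM model with 8 states. The deposited files give, per group, intervals with a state number, which is a category and not a score, a signal or a count. The depth behind a state is unknown here, and no interval or test over samples was possible. SD 6m was not analysed here. Each file was assigned to its group by its label and read as 13168874 bins of 200 bp on chromosomes 1 to 19 and X.

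TSS were those of the longest curated RefSeq transcript per gene in GRCm38.p6. Windows held the TSS bin and 2 kb on each side (21 bins), and a stretch was an unbroken run of state 6 holding the TSS bin. Sequences are from the RefSeq assembly GRCm38.p6. Of the 57 promoters 42 were found alike in the RefSeq promoter table, and those of Tbx5 and Olig1 were not. Python 3.11.15, numpy 2.4.6, pandas 2.3.3 and scipy 1.17.1 were used, and the measures were tested on simulated data (200 of 200 genes recovered). The 57 genes and all lists were chosen with earlier results of these data known, so the shares of all 26089 genes stand beside the counts as a description. Genes named are those outside state 6 in at least 1 group, the 5 widest and narrowest stretches, the 5 largest rises and falls, genes sharing a stretch, paralogs in states 1 to 5 throughout and, chosen after their values were seen, the remaining genes of each family. Alternatives were other TSS, windows, gene bodies, merged states and bridged gaps.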

Additional observations from a re-analysis of the deposited data

Results flagged for a closer look

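5 of the genes named for their widths were wider than in SD 3m in one older group and narrower in the other. No replicate exists, so the difference between the older groups was not tested. The stretch of Pax2 changed by 92.2 kb in SD 12m and by -128.2 kb in CR 12m, that of Six6 by 52.6 kb and -39.0 kb, and that of Pax7 by -23.8 kb and 12.8 kb. The stretch of Gbx2 changed by 82.2 kb and -17.6 kb and that of En2 by 6.0 kb and -47.8 kb, and for both the fall in CR 12m was absent when gaps of at most 1 kb were bridged (119.4 kb against 77.6 kb at Gbx2 and 118.6 kb against 116.2 kb at En2). Over the 57 genes 9 moved in opposite directions, 8 of them wider in SD 12m and narrower in CR 12m. The 8 include Gbx2, En2, and Lhx8 and Irx2, whose stretches were lost with the state of the TSS bin. They also include Six2 and Six3, which share 1 stretch that changed by only 1.0 kb and -0.6 kb. The same count over all genes was not made.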

How the results depend on the processing

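No paired analysis was possible because each group is 1 segmentation of merged libraries. None of the 50 alternative values, over 19 results, moved beyond set limits. These were a factor of 1.5 for counts and the 95% interval of the value over genes for shares and medians. For shares of the 57 genes that interval took the mean as a count of genes. In SD 3m it ran from 61.0% to 83.4% for the window share, and from 40.2 kb to 87.2 kb for the median width. Staying within limits this wide is a weak check. Taking any curated TSS gave 43, 54 and 46 genes in state 6 in SD 3m, SD 12m and CR 12m, and requiring all curated TSS gave 41, 51 and 44. The number of genes whose state differed from SD 3m ranged from 14 to 16 in SD 12m and from 14 to 15 in CR 12m. The median stretch width was highest for the genes in state 6 in all 3 groups, at 63.6 kb, 94.6 kb and 65.6 kb. The gene body without its first 2 kb left 55 of 57 genes. Bridging gaps for the direction of width changes was chosen after seeing the data, and gave 29 and 24 wider genes against 29 and 22. Single widths depend on gaps of a few bins, as at Gbx2 and En2. A TSS bin outside state 6 counted as no stretch also when gaps were bridged, as at Pax9 in SD 3m. The merged libraries differ in number by mark between groups, and depth per group is not in the files, so an effect of depth on the gain of state 6 in SD 12m was not tested. States were learned on the 4 marks without RNA or DNA methylation.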
